A study of Mus musculus with 6 samples.

Results

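Cyp26b1, the cytochrome P450 that oxidises and so clears retinoic acid, was followed with 8 other retinoid genes in 6 mouse heart libraries. The 9 genes were selected by name with earlier results of these data known, because Cyp26b1 had differed between the groups. They are 9 of the 29385 genes in the joined tables, and 7 of them were among the 16804 genes that passed the filter on low counts. All animals carried an altered allele of Myh6, the gene of the main myosin heavy chain of the adult mouse heart. Myh6 RH/+ hearts with vehicle had the RH allele beside a wild-type one, Myh6 RH/RQ hearts with vehicle had the RH and the RQ allele, and the third group had the RH and RQ alleles and received AAV-hpCas13d, an adeno-associated virus that delivers a form of the RNA-cutting enzyme Cas13d. Each group had 2 libraries. Hearts were taken 12 months after the agent was given to newborns, and the comparison asks how gene expression stood long after that treatment. The labels do not spell out the alleles and name no guide, promoter, dose or sex. The titles of the 2 samples in a group differ only in their first digit and the labels do not say that they are separate animals. The p-values therefore cover only the spread between these samples, which may be technical.

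Retinoic acid is made from vitamin A in steps. Retinol is taken up and held by binding proteins, oxidised to retinaldehyde by dehydrogenases, and oxidised again to retinoic acid by the Aldh1a enzymes, while Dhrs3 turns retinaldehyde back into retinol and the Cyp26 enzymes break retinoic acid down. Retinoic acid binds the receptors Rara, Rarb and Rarg, which sit on DNA with Rxr partners, and in many tissues Cyp26 genes, Dhrs3 and Rarb are themselves induced by it. In the developing heart Aldh1a2 is a known source of retinoic acid in the epicardium and in atrial progenitors.

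Levels are given as CPM, gene counts scaled to the library's total, and whole reads were recovered from them. Library totals ran from 36269261 to 51017058 reads, and a count of 0 allows up to 3 reads, which is 0.0588 to 0.0827 CPM depending on the library. Genes of the mitochondrial genome took 17.2% to 22.4% of the reads. The summed level of 9 cardiomyocyte markers was 54697 to 64709 CPM over the 6 libraries, so markers of heart muscle were abundant in each. Transcripts of the sex chromosomes split the groups. Xist, expressed from the inactive X of females, was at 280 and 265 CPM in the RH/+ pair, at 0.274 and 0.0516 CPM in the RH/RQ vehicle pair and at 299 and 326 CPM in treated RH/RQ hearts, and the Y-linked Ddx3y was at 85.2 CPM in both RH/RQ vehicle libraries and at 0 reads in the other 4. In both comparisons that include RH/RQ vehicle hearts, this split cannot be told apart from genotype or treatment. Treated RH/RQ and RH/+ hearts did not differ in it: limma called 0 of 7 sex-linked genes between them, as did edgeR and DESeq2, with 1 gene (Tsix) at an unadjusted p under 0.05.

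Cyp26b1 (chromosome 6, 84571414 to 84593908 on the minus strand, GRCm38) was low in RH/RQ vehicle hearts and high in treated ones. The RH/+ pair of libraries read 6.33 and 5.49 CPM. The RH/RQ vehicle pair read 1.25 and 1.11 CPM, and the treated pair 10.9 and 10.04 CPM. No library of one group reached the range of another, and the order RH/RQ vehicle, RH/+, treated held for every library. Behind these levels were 241 and 219 reads, 64 and 43 reads, and 395 and 381 reads in the same order of groups. The exact 95% Poisson intervals, which cover counting error only, were 0.966 to 1.60 and 0.802 to 1.49 CPM in the RH/RQ vehicle pair and 4.78 to 6.26 CPM in the lower of the RH/+ libraries, so these 2 groups stayed apart at this depth.

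**Figure D1:**
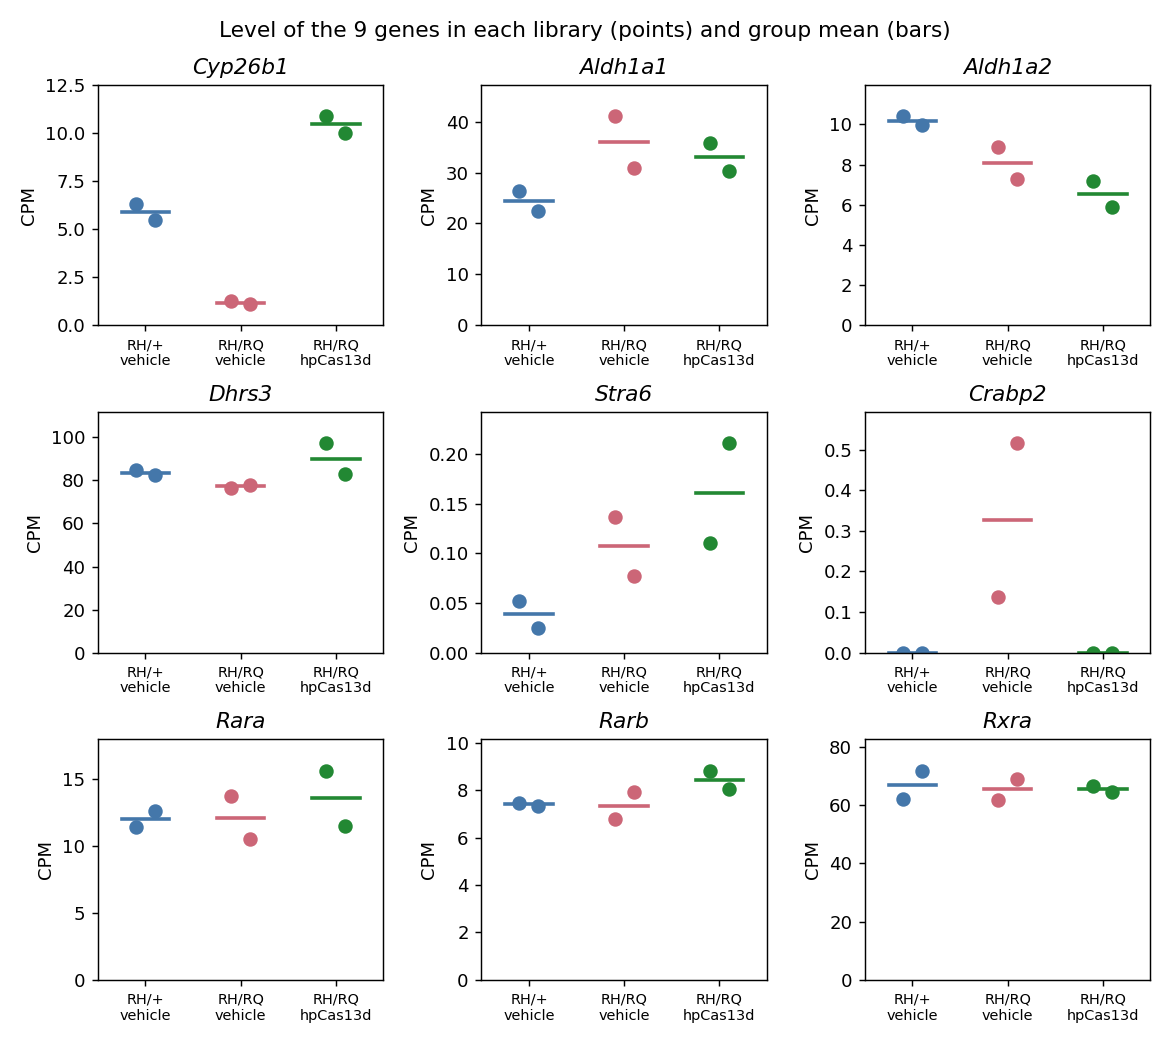
CPM of the 9 genes on a linear axis that starts at 0, with 1 point per library and a bar at the mean of each group of 2. Cyp26b1 is lowest in RH/RQ vehicle (1.25 and 1.11 CPM) and highest in treated hearts (10.9 and 10.04 CPM), while the points of Rara and Rxra overlap between groups.

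The mean of Cyp26b1 was 5.91 ± 0.594 CPM for RH/+, 1.18 ± 0.103 CPM for vehicle RH/RQ and 10.5 ± 0.598 CPM for treated hearts (SD over the 2 libraries of each group). These means stood in ratios of 0.200 for RH/RQ vehicle to RH/+, 8.86 for treated to vehicle RH/RQ and 1.77 for treated RH/RQ to RH/+. On the log2(CPM + 1) scale, which understates the change of low genes, the differences were -1.66, 2.39 and 0.73 (SE 0.17 each). The authors' deposited table gives log2 fold changes of -2.37 (SE 0.30), 3.09 (SE 0.27) and 0.72 (SE 0.21) for the same comparisons. The comparisons share libraries, so the 3 values are not independent of one another, and because Cyp26b1 was chosen for this pattern they are a description.

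Over the 6 libraries the highest Cyp26b1 level was 9.83 times the lowest. Among the 16804 tested genes its range of log2(CPM + 1), 2.496, ranked 14 from the widest, with 0.0774% of genes above it. The other tested members varied far less by that measure: 5.8% of tested genes had a wider range than Aldh1a1, 10.3% than Aldh1a2, 27.3% than Rara, 63.3% than Rarb, 63.5% than Dhrs3 and 90.5% than Rxra. The family's other 2 enzymes were close to undetected. Cyp26a1 was between 0.0263 and 0.225 CPM and Cyp26c1 at 0 to 0.0791 CPM, both below the filter. Per kilobase of gene model, the scale on which genes can be compared, Cyp26b1 averaged 1.09 CPM per kb over the 6 libraries, against 0.0536 for Cyp26a1 and 0.0147 for Cyp26c1. The lowest Cyp26b1 library, at 0.207 CPM per kb, was above the highest Cyp26a1 library, at 0.114.

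The sequence just before the Cyp26b1 transcript is shown because this gene carried the change and because Cyp26 genes are known targets of retinoic acid receptors. RefSeq promoter windows on GRCm38.p6 matched 8 of the 9 members with 18 windows. The first 250 bases of each, which end at the RefSeq gene start, were searched on both strands for the short motif that the receptors bind, with AGGTCA as one form, AGTTCA as another, GGGTCA as the third and GGTTCA as the fourth. A motif was in 38.6% of all 32851 windows and in 4 of the 18 member windows: 1 each of Aldh1a1, Rara, Rarb and Rxra. The 250 bases before the Cyp26b1 start held none of these letters in order on either strand. The stretch below is chr6:84593909-84594060 on the minus strand, 152 bases that end where the first annotated GENCODE exon begins, and it has no capitals because no motif was found.
Cyp26b1: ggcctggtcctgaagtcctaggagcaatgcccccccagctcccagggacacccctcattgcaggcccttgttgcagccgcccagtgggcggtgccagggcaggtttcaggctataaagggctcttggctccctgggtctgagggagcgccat
A direct repeat of 2 motifs with 5 bases between them, the classical layout of a retinoic acid response element, was in 29 of the 32851 windows (0.0883%). Among the member windows 1 held it, that of Rarb at chr14:16575506-16575535 on the minus strand, where the capitals below mark the motifs.
Rarb: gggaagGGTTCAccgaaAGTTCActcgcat
In this window the repeat runs from base 53 to base 37 before the start. With the single form AGGTCA, 14% of windows and 1 member window matched, and the repeat spaced by 5 bases was in 3 windows and in 0 of the members'. Finding or missing these letters describes the window and not receptor binding in these hearts, which was not measured.

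The enzymes that make retinoic acid differed in pattern from Cyp26b1 and from each other. Aldh1a1, an abundant retinaldehyde dehydrogenase (chromosome 19, 20492715 to 20643465), was at 26.4 and 22.4 CPM in the RH/+ pair, 41.0 and 30.9 CPM in the RH/RQ vehicle pair and 35.8 and 30.3 CPM in the treated pair. Both RH/RQ groups lay above RH/+ in every library, and they overlapped with one another. The log2 difference was 0.53 for RH/RQ vehicle against RH/+, -0.11 for treated against vehicle RH/RQ and 0.42 for treated RH/RQ against RH/+ (SE 0.13 each). The span of Aldh1a1 overlaps those of C730002L08Rik and Gm6684 on the opposite strand. Whether their reads enter its count is not known. Overlap of exons was not examined, and the strand setting of the counting is not given in the sources used here.

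Aldh1a2 (chromosome 9, 71215789 to 71296243), the main embryonic retinoic acid synthase, stepped down over the groups. It was at 10.4 and 9.97 CPM in the RH/+ pair, 8.88 and 7.27 CPM in the RH/RQ vehicle pair and 7.20 and 5.91 CPM in the treated pair, with no overlap between groups although 7.27 and 7.20 CPM are nearly equal. The log2 differences were -0.31, -0.26 and -0.57 (SE 0.16 each) in the order of comparisons used above, and the authors' deposited table gives -0.39, -0.36 and -0.75. None of the 3 was called, but the difference of treated RH/RQ from RH/+ was called lower in 9 of 18 settings, edgeR and DESeq2 among them. Aldh1a3, the third enzyme of the family, was at 0.870 to 1.43 CPM over all libraries and was not called in any comparison. Per length the order was Aldh1a1 with 6.31, Aldh1a2 with 3.65 and Aldh1a3 with 0.259 CPM per kb. The first 2 overlapped slightly over libraries, with 4.54 as the lowest value of Aldh1a1 and 4.59 as the highest of Aldh1a2.

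The sum of 11 epicardial and mesothelial markers, of which Aldh1a2 is 1, was lowest in the treated libraries, but its members did not move together, and limma called 1 of the 11 lower in each comparison with treated hearts. Of all tested genes 0.827% were called lower against vehicle RH/RQ and 0.53% against RH/+ hearts. In either direction, 5 of the 11 had an unadjusted limma p under 0.05 against vehicle RH/RQ and 6 against RH/+ hearts. EdgeR called 1 and 4 of the 11 in these comparisons, and DESeq2 1 and 2. The summed level was 39.7 to 42.5 CPM in the RH/+ pair, 36.3 to 47.5 CPM in the RH/RQ vehicle pair and 29.2 to 32.5 CPM in the treated pair. The mesothelial surface protein Msln was at 7.14 and 3.98, 2.37 and 6.24, and 2.70 and 1.19 CPM, and it was called lower in treated RH/RQ than in RH/+ hearts (log2 difference -1.16, SE 0.28, limma adjusted p = 0.0232). Muc16, another mesothelial protein, was at 1.63 and 1.28, 1.02 and 3.07, and 0.551 and 0.316 CPM and was called lower in treated than in vehicle RH/RQ hearts (-1.004, SE 0.23, limma adjusted p = 0.0195). The epicardial transcription factor Wt1 was at 6.80 and 7.49, 9.29 and 8.53, and 6.84 and 8.09 CPM and was not called. Krt18, an epithelial keratin, went the other way: at 0.893 and 0.401, 0.843 and 2.19, and 1.96 and 1.37 CPM it was higher in both treated libraries than in RH/+, a difference that did not pass (0.70, SE 0.22, limma adjusted p = 0.0965). The treated means of Krt8 and Tbx18, 0.583 and 5.79 CPM, were also above those of RH/+, 0.329 and 5.11 CPM, with overlapping libraries. None of the 11 markers was at 0 in any library. The part of these cells in the Aldh1a2 values was not tested, and in bulk tissue fewer cells of a type and less RNA per cell cannot be told apart.

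Dhrs3 (chromosome 4, 144892827 to 144928209), which returns retinaldehyde to retinol, was the most abundant member per length. It was at 84.6 and 82.4 CPM in the RH/+ pair, 76.6 and 77.7 CPM in the RH/RQ vehicle pair and 97.2 and 82.8 CPM in the treated pair. Its RH/RQ vehicle libraries were the lowest, as for Cyp26b1, but the gap was small: the log2 differences were -0.11, 0.21 and 0.10 (SE 0.10 each), and none was called. At 28.5 CPM per kb it was the fourth of 8 retinol and retinaldehyde oxidoreductases, after Dhrs7c, Dhrs4 and Rdh14, with its range overlapping that of Rdh14.

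Crabp2 and Stra6 did not pass the filter and have no fitted value. Crabp2 (chromosome 3, 87948666 to 87953376), which carries retinoic acid to the receptors, had 7 and 20 reads in the RH/RQ vehicle libraries, or 0.137 and 0.516 CPM, and 0 reads in the other 4 libraries. Set against 3 reads in the library with the highest floor, the RH/RQ vehicle mean was at least 4.14-fold higher than RH/+ and at least 3.95-fold higher than treated hearts. These limits take the RH/RQ vehicle reads as exact and leave out their counting error. They rest mostly on replicate 2: against the same floors replicate 1 alone gives at least 1.74-fold and 1.66-fold, and replicate 2 alone at least 6.55-fold and 6.23-fold. The 95% Poisson intervals of the RH/RQ vehicle libraries were 0.0552 to 0.283 and 0.315 to 0.796 CPM, so the 2 libraries of that group also differed from each other beyond counting error. The interval of replicate 1 overlaps those of the libraries at 0 reads, which reach 0.0968 CPM in RH/+ and 0.102 CPM in treated hearts. Replicate 1 alone is therefore not set apart from them by counting error. Stra6 (chromosome 9, 58063788 to 58153996), the cell-surface receptor for retinol-binding protein, had 2 and 1 reads in the RH/+ pair, 7 and 3 reads in the RH/RQ vehicle pair and 4 and 8 reads in the treated pair. Its highest level was 0.211 CPM. Both RH/RQ groups lay above RH/+ in every library, with ratios of means to RH/+ of 2.77 for vehicle and 4.14 for treated hearts. The libraries farthest apart, with 1 and 8 reads, had overlapping intervals (0.000634 to 0.140 and 0.0911 to 0.416 CPM), which does not show that their levels are equal. The span of Stra6 overlaps those of Ccdc33 and Gm16131. Overlap of their exons was not examined, so whether their reads enter its count is not known.

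None of the 3 receptors among the members was called between any groups. Rara (chromosome 11, 98927818 to 98974942) was at 11.4 and 12.6 CPM in the RH/+ pair, 13.7 and 10.5 CPM in the RH/RQ vehicle pair and 15.6 and 11.5 CPM in the treated pair. Rarb (chromosome 14, 16430839 to 16819156, minus strand) was at 7.46 and 7.34, 6.76 and 7.94, and 8.82 and 8.04 CPM in the same order. Rxra (chromosome 2, 27676440 to 27762957) was at 62.0 and 71.8, 61.9 and 68.9, and 66.5 and 64.6 CPM. Rara and Rxra overlapped between all groups, and only Rarb had both treated libraries above all others. The log2 differences of Rara were -0.00, 0.15 and 0.15 (SE 0.16), those of Rarb -0.01, 0.18 and 0.17 (SE 0.16) and those of Rxra -0.03, 0.01 and -0.03 (SE 0.10). The span of Rarb overlaps those of Top2b and Gm48162 on the opposite strand. Whether part of its count comes from them is not known, since overlap of exons was not examined.

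Rxrg, the receptor with the highest level per length, is not among the 9 genes. It averaged 31.2 CPM per kb, above Rxra with 12.1 and Rxrb with 10.6, which overlapped, and these stood above Rarg with 5.71, Rara with 2.88 and Rarb with 1.47 CPM per kb, each without overlap with the next. Rxrg was at 82.7 and 75.5 CPM in the RH/+ pair, 68.5 and 60.6 CPM in the RH/RQ vehicle pair and 73.8 and 68.6 CPM in the treated pair. Its log2 difference of -0.29 (SE 0.10) between RH/RQ vehicle and RH/+ did not pass (limma adjusted p = 0.102), while it was called lower by edgeR, by DESeq2 and after TMM or RLE scaling.

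**Figure D2:**
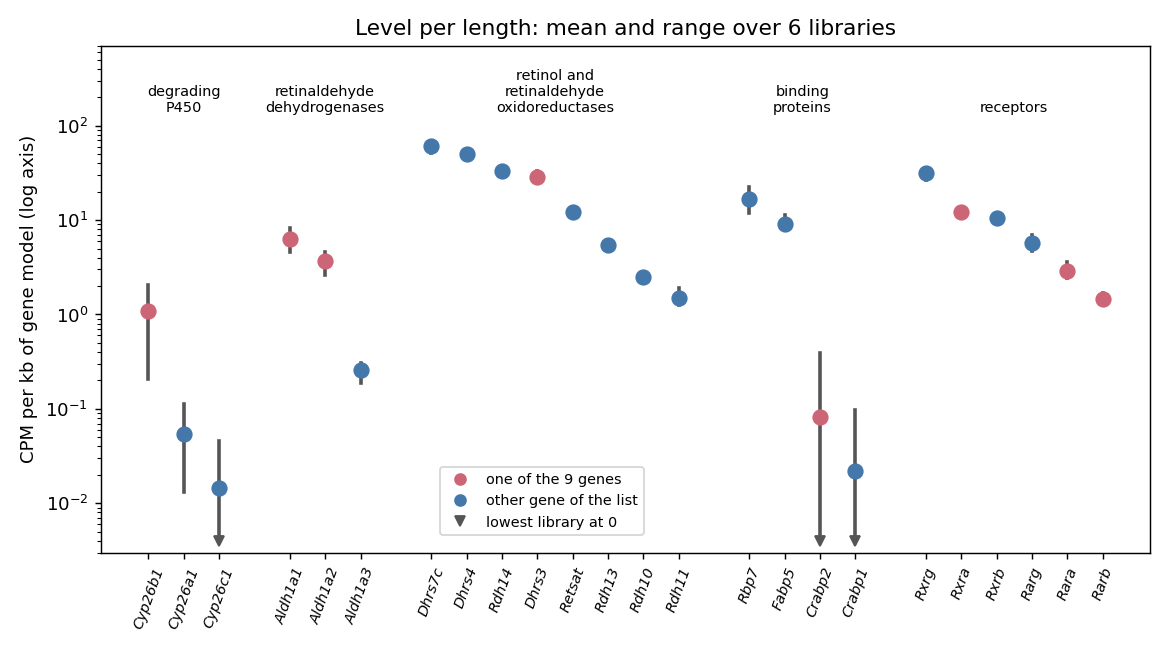
CPM per kb of merged exons on a log axis for genes of 5 families, as the mean (points) and the range over 6 libraries (lines); triangles mark genes whose lowest library was at 0. Members in red span from Crabp2 at 0.0823 to Dhrs3 at 28.5 CPM per kb, and Cyp26b1 has a wide range, from 0.207 to 2.03.

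Calls at a limma adjusted p under 0.05 over all genes were counted for the members beside the share of all tested genes called. Between RH/RQ vehicle and RH/+ hearts Aldh1a1 was called higher and Cyp26b1 lower, 1 each of the 7 tested members, where 3.48% of all tested genes were called higher and 1.51% lower. Between treated and vehicle RH/RQ hearts 1 member, Cyp26b1, was called higher and 0 lower, against 1.22% and 0.827% of all genes. Cyp26b1 was also the 1 member called higher in treated RH/RQ against RH/+ hearts, with 0 lower, against 2.33% and 0.53%. Since these contrasts were used to select the genes, nothing is read from the counts. Over all genes the 3 comparisons gave 585 higher and 253 lower, 205 and 139, and 391 and 89 genes. The excess of higher calls depended on the scaling: DESeq2 gave 491 and 463, 179 and 191, and 244 and 192, and limma with TMM factors 534 and 400, 168 and 199, and 240 and 170. The call of Cyp26b1 between treated RH/RQ and RH/+ hearts was lost without either RH/+ library or without treated replicate 1, where the log2 difference was 0.65 to 0.82. That of Aldh1a1 was lost when RH/+ replicate 2 was left out, and likewise RH/RQ vehicle replicate 1.

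**Figure D3:**
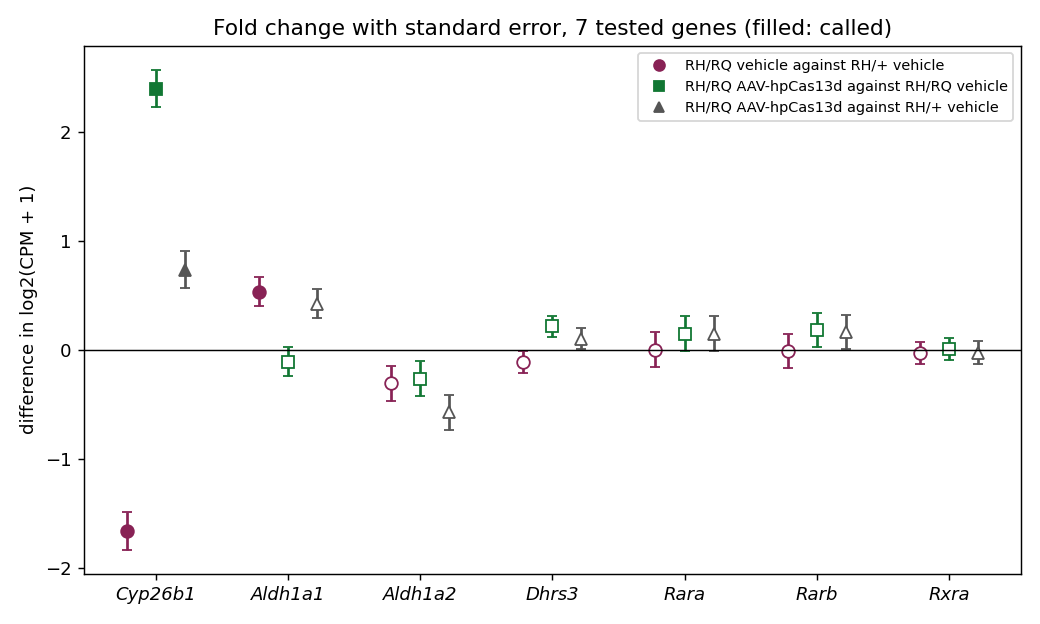
Difference in log2(CPM + 1) with its standard error for the 7 tested members in 3 comparisons, with filled symbols for a limma adjusted p under 0.05 over all genes. Cyp26b1 lies at -1.66, 2.39 and 0.73, and the other 6 members lie between -0.57 and 0.53.

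Of 48 other retinoid genes 42 were found and 26 were tested. Between RH/RQ vehicle and RH/+ hearts 2 were called higher, Rbp7 and Cyp1b1, and 1 lower, Dhrs7c. The median log2 difference of the 26 was 0.04, as over all genes (0.04). Between treated and vehicle RH/RQ hearts Ttr and Adh1 were called higher and 0 lower (median 0.07, all genes 0.04). Between treated RH/RQ and RH/+ hearts 4 were called higher, among them Ttr, Adh1 and Cyp1b1, and 0 lower (median 0.03, all genes 0.08). These genes were listed with earlier results known, and their counts of 3, 2 and 4 of 26 stand beside the shares of all genes given above.

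Among proteins that carry retinol, Rbp7, a cellular carrier known from adipose tissue and endothelium, was at 8.79 and 8.54 CPM in the RH/+ pair, 16.1 and 13.0 CPM in the RH/RQ vehicle pair and 13.8 and 11.3 CPM in the treated pair. It rose by 0.68 (SE 0.15, limma adjusted p = 0.00708) in RH/RQ vehicle hearts, and the call was lost when RH/+ replicate 2 was left out, and likewise RH/RQ vehicle replicate 1 (adjusted p up to 0.144). Like Aldh1a1 it was higher than RH/+ in all 4 RH/RQ libraries. Ttr, the plasma carrier of thyroid hormone and of retinol-binding protein, was barely detected, at 0.394 and 0.125, 0.235 and 0.335, and 0.882 and 1.21 CPM in the same order of groups. It was called higher in treated hearts than in either vehicle group (0.67, SE 0.17, limma adjusted p = 0.0403 and 0.70, SE 0.17, limma adjusted p = 0.0224). Leaving out any 1 of the 4 libraries ended the call against RH/RQ vehicle (adjusted p up to 0.192), and leaving out RH/+ replicate 2 or treated replicate 2 that against RH/+ (up to 0.253); edgeR and DESeq2 made neither call.

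Of the enzymes around retinol, Adh1, an alcohol dehydrogenase that also oxidises retinol, was at 6.75 and 8.04 CPM in the RH/+ pair, 7.29 and 6.91 CPM in the RH/RQ vehicle pair and 12.9 and 10.8 CPM in the treated pair. The treated libraries lay above the other 4. It was called higher against RH/RQ vehicle (0.66, SE 0.16, limma adjusted p = 0.0244) and against RH/+ (0.61, SE 0.16, limma adjusted p = 0.0326). The first call was lost without treated replicate 1 or either RH/RQ vehicle library (up to 0.225). The second was lost without treated replicate 1 or either RH/+ library (up to 0.408), with DESeq2 and with TMM or RLE factors. Cyp1b1, a P450 that can oxidise retinol among many substrates, was at 5.20 and 7.19, 12.5 and 13.2, and 17.8 and 16.2 CPM. It was higher than RH/+ in RH/RQ vehicle hearts by 0.96 (SE 0.15, limma adjusted p = 0.000307) and in treated hearts by 1.34 (SE 0.15, limma adjusted p = 1.25e-05), and both calls held without each library in turn. Its difference of 0.38 between the RH/RQ groups was not called (limma adjusted p = 0.286).

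**Figure D4:**
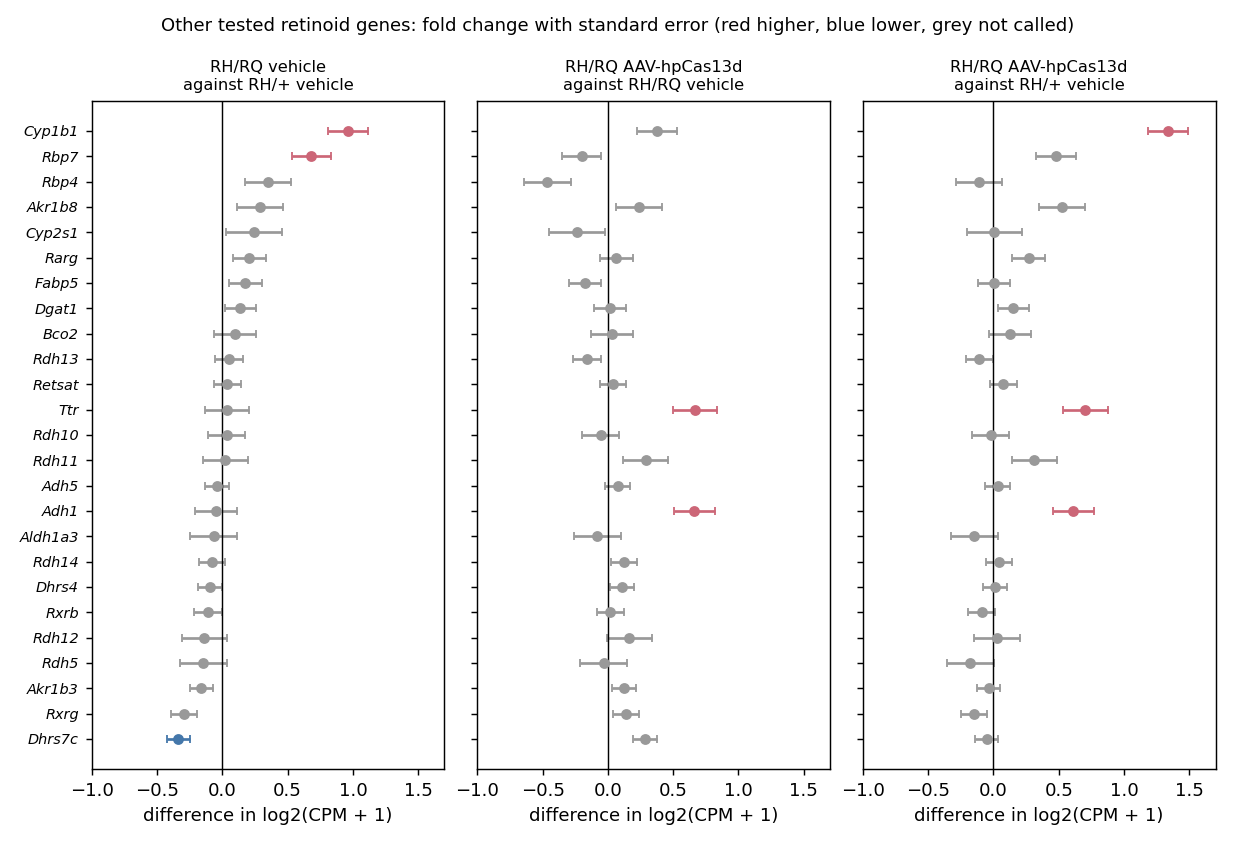
Difference in log2(CPM + 1) with its standard error for other tested retinoid genes, in 3 panels with the same axis, 1 for each comparison. Cyp1b1 lies at 0.96, 0.38 and 1.34, most other genes lie near 0, and the called genes are coloured.

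The most abundant retinoid genes per length, besides the members, were Dhrs7c with 60.8, Dhrs4 with 49.9, Rdh14 with 32.8, Rxrg with 31.2 and Akr1b3 with 25.4 CPM per kb. Dhrs7c, a short-chain dehydrogenase of the sarcoplasmic reticulum of striated muscle, was at 124 and 125 CPM in the RH/+ pair, 99.3 and 97.2 CPM in the RH/RQ vehicle pair and 120 and 119 CPM in the treated pair. It was lower in RH/RQ vehicle than in RH/+ hearts by a log2 difference of -0.34 (SE 0.09, limma adjusted p = 0.0283), a call that was lost without any 1 of the 4 libraries compared (up to 0.214). The difference of 0.28 between treated and vehicle RH/RQ hearts did not pass (limma adjusted p = 0.12). Dhrs4 and Rdh14, enzymes that act on retinaldehyde and retinol, ranged from 83.3 to 93.5 and from 46.1 to 51.4 CPM, and Akr1b3, aldose reductase, from 199 to 228 CPM. None of these 3 was called in any comparison.

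Known targets of retinoic acid were counted in the same way. Of 29 listed genes 27 were found and 22 tested. Between RH/RQ vehicle and RH/+ hearts limma called 0 of the 22 (all tested genes: 3.48% higher, 1.51% lower), with 2 at an unadjusted p under 0.05, and edgeR and DESeq2 called 0. Between treated and vehicle RH/RQ hearts limma again called 0 (all tested genes: 1.22% higher, 0.827% lower), with 3 at an unadjusted p under 0.05, while edgeR and DESeq2 each called Ret lower. Between treated RH/RQ and RH/+ hearts 1 of the 22 was called higher, where 2.33% of all tested genes were, and 1, Ret, lower, where 0.53% were. Ret, a receptor tyrosine kinase for neurotrophic ligands, was at 8.19 and 6.14, 7.06 and 6.55, and 4.14 and 3.98 CPM, with both treated libraries below the other 4. Its log2 difference from RH/+ was -0.68 (SE 0.17, limma adjusted p = 0.0288), and the call was lost without RH/+ replicate 1 or either treated library (up to 0.485). The median log2 difference of the 22 was 0.03, 0.04 and 0.07 in the 3 comparisons, beside 0.04, 0.04 and 0.08 over all genes. The tested Hox genes on the list were low, between 0.0264 CPM (Hoxa4) and 3.75 CPM (Hoxb4). Each was higher in replicate 1 than in replicate 2 of every group: Hoxb4 was at 2.99 and 1.65, 3.59 and 1.39, and 3.75 and 1.56 CPM. For such genes a call is hard to reach, so its absence does not show that they were unchanged. Of the members known to be induced by retinoic acid, Dhrs3 and Rarb were not called in any comparison, and Cyp26b1, whose calls the choice of genes had used, was called in all 3.

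Of 17 coregulators of nuclear receptors, all tested, limma called 0 in each comparison, with 2 at an unadjusted p under 0.05 each time, and edgeR and DESeq2 called 0. Of all tested genes limma called 3.48% higher and 1.51% lower, 1.22% and 0.827%, and 2.33% and 0.53% in the 3 comparisons. The medians of the 17 were 0.11, 0.01 and 0.12, beside 0.04, 0.04 and 0.08 over all genes. Nrip1, a ligand-dependent corepressor and itself a retinoic acid target, was at 18.8 and 17.2 CPM in the RH/+ pair, 23.8 and 23.2 CPM in the RH/RQ vehicle pair and 23.6 and 24.8 CPM in the treated pair, and it did not pass in RH/RQ vehicle against RH/+ hearts (0.37, SE 0.12, limma adjusted p = 0.077).

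Over the 6 libraries Cyp26b1 had Pearson correlations, on log2(CPM + 1), of 0.80 with Dhrs3, 0.59 with Rarb, 0.32 with Rara, 0.02 with Rxra, -0.22 with Aldh1a2 and -0.31 with Aldh1a1. These rest on 6 libraries in 3 groups and are given as a description. The genes most like Cyp26b1 were sought among 360 genes that averaged 1 CPM or more and spanned 1 or more on the log2 scale, leaving out numbered gene models. They were Usp18 with r = 0.989, Scgb1c1 with 0.966, Smoc2 with 0.964, Klf15 with 0.962 and Klhl38 with 0.962. Usp18, an interferon-induced protease that removes ISG15, was at 8.56 and 7.47 CPM in the RH/+ pair, 4.31 and 3.45 CPM in the RH/RQ vehicle pair and 10.04 and 9.78 CPM in the treated pair. The matricellular protein Smoc2 was at 126 and 121, 80.5 and 66.6, and 141 and 126 CPM, and the metabolic transcription factor Klf15 at 40.5 and 42.3, 23.2 and 24.7, and 53.5 and 41.5 CPM. All these genes were lowest in the RH/RQ vehicle libraries.

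The most opposite genes were Atf3 with r = -0.976, C7 with -0.963 and the Y-linked Kdm5d, Ddx3y and Uty with -0.953, -0.952 and -0.952. Atf3, a stress-induced transcription factor, was at 4.04 and 3.86, 8.15 and 8.02, and 2.95 and 3.80 CPM. The complement component C7 was at 3.62 and 5.14, 27.8 and 26.9, and 1.96 and 4.85 CPM. Xist had r = 0.959 with Cyp26b1 and ranked sixth from the top. The part of the sex-linked split in the Cyp26b1 values was not tested.

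**Figure D5:**
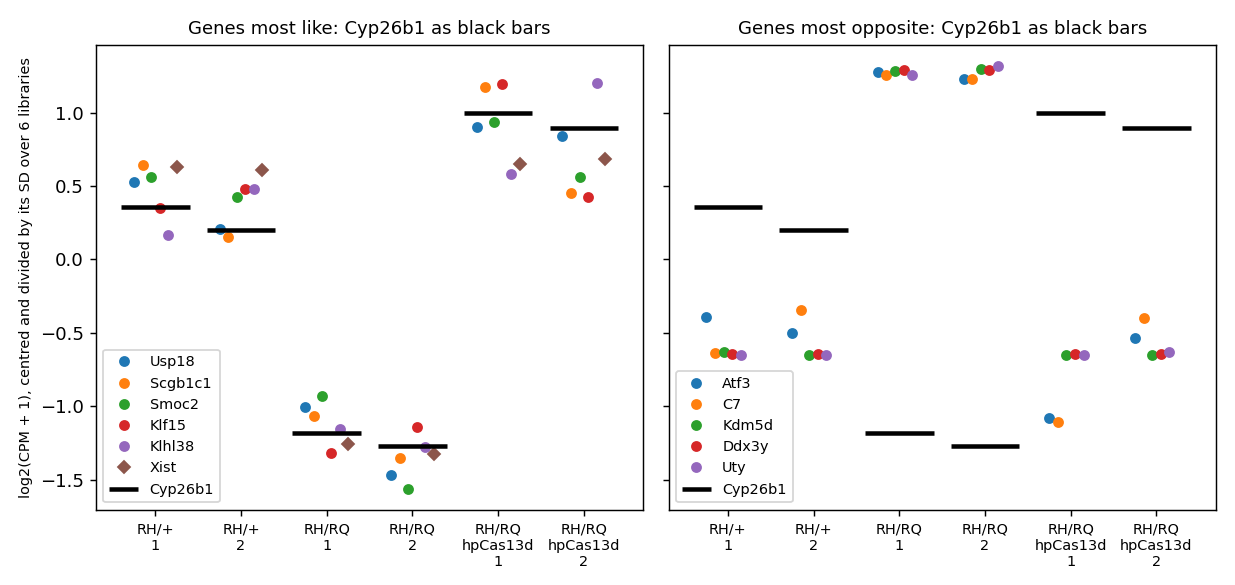
Log2(CPM + 1) in each library, centred and divided by its SD over the 6 libraries, for the 5 genes most like Cyp26b1 and Xist (left) and the 5 most opposite genes (right), with Cyp26b1 as black bars. Both RH/RQ vehicle libraries stand apart in every gene shown, and Kdm5d, Ddx3y and Uty are nearly flat over the other 4 libraries.

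Markers of other heart cells were set beside the Cyp26b1 values. For the marker counts that follow, the shares of all tested genes called higher and lower were 3.48% and 1.51% for RH/RQ vehicle against RH/+. They were 1.22% and 0.827% for treated against vehicle RH/RQ hearts, and 2.33% and 0.53% for treated RH/RQ against RH/+ hearts. Over the groups RH/+, RH/RQ vehicle and treated, the summed level of 10 endothelial markers was 3202 to 3349, 3416 to 3782 and 3252 to 3295 CPM, and that of 8 endocardial markers 200.8 to 249, 231 to 273 and 230.2 to 230.5 CPM. Limma called 0 of these genes in any comparison, with at most 2 of a list at an unadjusted p under 0.05, edgeR called 0, and DESeq2 called 1 endothelial marker between the RH/RQ groups. Cd36, a fatty acid transporter, made up 1558 to 1974 CPM of the endothelial sums, which were not lowest in RH/RQ vehicle hearts. Gata4 made up 120 to 139 CPM of the endocardial sums. Some single markers were lowest in RH/RQ vehicle hearts, as Cyp26b1 was: the angiopoietin receptor Tek was at 69.96 and 72.6, 66.8 and 65.0, and 73.2 and 71.0 CPM, and the endocardial growth factor Nrg1 at 0.866 and 1.03, 0.353 and 0.361, and 0.524 and 1.29 CPM. Nrg1 had only 14 to 49 reads per library. Most markers of both lists had a higher mean in RH/RQ vehicle than in RH/+ hearts, among them Cdh5 (233 against 208 CPM), Kdr (290 against 252 CPM) and Plvap (9.16 against 5.89 CPM). For 10 smooth muscle and pericyte markers the sums were 1429 to 1439, 1171 to 1214 and 1192 to 1322 CPM. Of these Acta2 was called lower than RH/+ in both RH/RQ groups, and Abcc9 was lower in RH/RQ vehicle than in RH/+ hearts and higher with treatment. EdgeR and DESeq2 called 0 of the 10 between treated and vehicle RH/RQ hearts. Pdgfrb and Kcnj8, on the same list, did not follow Abcc9, with means of 70.1, 85.9 and 88.0 CPM and of 47.7, 48.1 and 50.8 CPM. Fibroblast markers, 12 in number, summed to 2409 to 2855, 3395 to 3580 and 3557 to 4152 CPM. A large part of these sums was 1 marker, Gsn, at 1278 and 1627, 1603 and 1550, and 2267 and 1934 CPM. Of the 12 markers 7 were called higher in RH/RQ vehicle than in RH/+ hearts, 3 lower in treated than in vehicle RH/RQ hearts and 8 higher in treated RH/RQ than in RH/+ hearts. In the last comparison edgeR called 4 of the 12 and DESeq2 6. Means fell from vehicle to treated RH/RQ hearts for Col1a1 (127 to 55.9 CPM), Col1a2 (178 to 103 CPM) and Col3a1 (227 to 102 CPM). All other markers on the list had higher means in treated than in vehicle RH/RQ hearts, Dcn (875 against 816 CPM) among them.

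Atrial markers, 11 in number, summed to 247 to 287 CPM in the RH/+ pair, 242 to 246 CPM in the RH/RQ vehicle pair and 581 to 905 CPM in the treated pair. Nppa, the atrial natriuretic peptide gene, made up 428 and 753 CPM of the treated sums. The atrial myosin light chain Myl7 was at 0.0791 to 0.696 CPM over all 6 libraries and Sln, an atrial regulator of the calcium pump, at 0 to 0.110 CPM. Myl7 was tested and not called, and Sln was below the filter. Other markers on the list did move. Kcna5, a potassium channel, was at 19.3 and 19.0 CPM in the RH/+ pair, 21.5 and 21.5 CPM in the RH/RQ vehicle pair and 39.8 and 33.1 CPM in the treated pair. It stood far above Myl7 and Sln in every library, vehicle ones included. With treatment it was called higher against both vehicle groups (limma adjusted p = 0.000773 and 6.84e-05). Of the 9 atrial markers tested, 2 (Nppa and Kcna5) were called higher in treated than in vehicle RH/RQ hearts, and against RH/+ 3 (with Dkk3) were called higher and 1 (Kcnj3) lower. The part of atrial tissue in the treated values was not tested. Macrophage markers, 10 in number, summed to 359 to 364, 436 to 480 and 380 to 455 CPM, with 5 called higher in RH/RQ vehicle than in RH/+ hearts. The part of endothelial and endocardial cells, fibroblasts, mural cells and macrophages in the Cyp26b1 and Aldh1a1 values was not tested. For Ttr, whose usual source is the liver, the other liver marker tested, Ahsg, was called higher than RH/+ in both RH/RQ groups, and its part was not tested either.

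Some valve, adipocyte and blood markers also differed between groups. The 8 valve interstitial markers summed to 30.8 and 30.7 CPM in the RH/+ pair, 55.4 and 61.8 CPM in the RH/RQ vehicle pair and 38.7 and 39.6 CPM in the treated pair, highest where Cyp26b1 was lowest. Of 6 tested, Comp, Fmod and Prg4, extracellular matrix genes, were called higher in RH/RQ vehicle than in RH/+ hearts, Fmod and Prg4 were lower with treatment, and Comp was also called higher in treated RH/RQ than in RH/+ hearts. DESeq2 called 0 of the 6 in that last comparison. Of 4 adipocyte markers tested, limma called Plin1, Cfd and Car3 lower in RH/RQ vehicle than in RH/+ hearts and Car3 also in treated hearts. DESeq2 called 1 of the 4 in the first comparison and 0 in treated RH/RQ against RH/+ hearts. The RH/+ levels came mostly from replicate 2: in that pair Plin1 was at 0.263 and 1.10, Cfd at 0.236 and 4.11 and Car3 at 0.866 and 7.34 CPM. Car3 was at 0.0258 to 0.579 CPM in the other 4 libraries. Cfd in RH/+ replicate 1 lay below its level in treated replicate 2, 0.395 CPM. Of 5 erythroid markers, which summed to 251 and 302, 230.4 and 348, and 184 and 158 CPM, 3 were called lower in treated than in vehicle RH/RQ hearts and 4 lower in treated RH/RQ than in RH/+ hearts. In each of these comparisons edgeR called 4 of the 5, and DESeq2 only 1. The part of valve, adipocyte and blood cells in the members' values was not tested.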

How the data were processed

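The authors deposited 3 full tables with 4 libraries each, whose levels are CPM and whose comparisons are log2 fold changes with standard errors. HISAT2, HTSeq, DESeq2 and mm10 are named in the submitters' processing notes; versions, annotation and strand setting are not given in the sources used here. All deposited CPM values were whole multiples of 1 read (100%, tolerance 0.001 reads), so reads were recovered; a library found in 2 tables had the same values (largest difference 0). The design foresaw limma on normalised values. Limma 3.58.1 (R 4.3.3) with a trend was fitted to log2(CPM + 1) of all 6 libraries with 3 group means, after filterByExpr with a minimum count of 10, with Benjamini-Hochberg adjustment over 16804 genes. Alternatives used edgeR 4.0.16, DESeq2 1.42.0, other scalings, pseudocounts and filters, a block and each library left out. The 2 libraries of a group differed beyond sampling noise (mean chi-square per gene 12.9, 17.8 and 25.0), and each counts as its own sample.

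The members and lists were chosen with earlier results of these data known, so member values carry no p. The named genes are all members; on each list every called gene, or the 6 smallest p where more were called; the 5 most abundant other retinoid genes per length; and the 5 genes most like and 5 most opposite Cyp26b1. Nrip1, Xist and others, marker genes among them, outside it were chosen after their values were seen. Gene models are those of GENCODE M21 (27674 symbols had 1 match and 34 several), promoters those of RefSeq. Of the lists, 6 retinoid genes and 2 targets were not analysed here, and 1 called gene of the lists is not reported here. The Schwann cell and arterial marker lists were also counted: their summed CPM over all libraries ran from 11.4 to 19.8 and 118 to 140, and limma called 1 marker on them, the arterial Hey1, lower in treated than in vehicle RH/RQ hearts.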

Additional observations from a re-analysis of the deposited data

How the results depend on the processing

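Direction and call of Cyp26b1 held in all 18 settings for RH/RQ vehicle against RH/+ (log2 difference -2.37 to -0.82) and for treated against vehicle RH/RQ hearts (1.32 to 3.09). The ends came from DESeq2 and from a pseudocount of 5 CPM in place of 1. Between treated RH/RQ and RH/+ hearts the difference kept its direction and was called in 14 of 18 settings. The call was lost with no filter on low genes (0.73) and with a library left out (0.65 to 0.82 over those that lost it).

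Calls on the retinoid list for RH/RQ vehicle against RH/+ (3) became 0 with no filter and 1 when RH/+ replicate 2 was left out or RH/RQ vehicle replicate 1, with 1 to 3 over the libraries left out. For treated against vehicle RH/RQ (2) they were 1 with TMM factors, RLE factors, edgeR, DESeq2, either pseudocount or a mean of at least 1 CPM, 0 with no filter, and 0 to 2 with a library left out. For treated RH/RQ against RH/+ (4) they were 2 with TMM or RLE factors, 1 with DESeq2, 0 with no filter, and 1 to 4 with a library left out. Calls on the target list for RH/RQ vehicle against RH/+ (0) became 1, Nrip1, with only the 4 libraries compared, with CPM over nuclear genes or without either treated library, and the coregulator list, which holds Nrip1 too, changed from 0 to 1 in the same settings. For treated against vehicle RH/RQ the target count (0) was 1, Ret lower, with TMM factors, RLE factors, edgeR, DESeq2, a pseudocount of 0.1 CPM, a mean of at least 1 CPM, CPM over nuclear genes or the replicate block, and 1 (higher) without treated replicate 2. For treated RH/RQ against RH/+ the target count (2) was 1 with TMM factors, RLE factors, DESeq2 or a pseudocount of 5 CPM, 0 with no filter and 0 to 2 with a library left out. The cause of these changes was not tested.

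Block by the first digit of the sample titles: over 13488 genes the deviations of same-digit libraries from their group means correlated at 0.179 (RH/+ with RH/RQ vehicle), 0.0896 (RH/RQ vehicle with treated) and -0.0309 (RH/+ with treated). The labels do not say what the digit stands for, and these correlations cannot tell what same-digit libraries share. With this replicate block limma called 1173, 567 and 715 genes against 838, 344 and 480, and 1 coregulator, Nrip1, between treated RH/RQ and RH/+ hearts.

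Counts over all genes fell to 57, 15 and 7 with no filter, and ran from 343 to 1156, 134 to 613 and 172 to 703 with a library left out. At a pseudocount of 0.1 CPM, 9 of the 10 genes named for likeness to Cyp26b1 stayed among the 5 at either end. With 43 to 395 reads per library, counting error is small for Cyp26b1, while Crabp2 and Stra6 are limited by depth.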
